A study of Drosophila melanogaster with 3 samples.

Results

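The genes described here encode the proteins of the mitochondrial ribosome, and their members were all probes whose current gene symbol begins with mRpL or mRpS and that had a value on all 3 arrays. This gave 79 probes of 63 genes, among 11765 probes tested in all, each probe a spotted cDNA clone, with 53 probes of 43 genes for the large subunit and 26 probes of 20 genes for the small subunit. The gene table holds 73 genes with such symbols. The other 10 had no probe of their own, namely mRpL13, mRpL27, mRpL34, mRpL53, mRpS14, mRpS18A, mRpS18C, mRpS21, mRpS23 and mRpS25. The rule used the names and the presence of a value on every array, and no ratio. It left out 2 probes that are empty in experiment 4, RE09091 of mRpL46 and RH64455 of mRpS34.

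The data are 3 two-colour arrays of fly cDNA clones from syncytial Drosophila embryos, one for each of the experiments that the labels number 3, 4 and 5. Each array compared embryos 30 min after laser wounding, with RNA in Cy3, with embryos handled alike but left unwounded, with RNA in Cy5. Embryos of both kinds were collected over 0 to 1 h, dechorionated by hand, kept in halocarbon oil and carried the actin reporter sGMCA, and 30 ug of total RNA was labelled. The strain beyond this reporter, and how many embryos were pooled for an array, are not given in the sources used here. Each value is a log2 ratio, read as wounded over unwounded, which is the likely direction. The table does not state it, and it was taken from the study's main text, since 12 of 12 genes named there as raised lay above 0 and 13 of 13 named as lowered lay below 0. Those genes were chosen on these samples, so that they are no independent evidence of the direction. Because wounded RNA was in Cy3 on all 3 arrays, dye and condition cannot be told apart, and because whole embryos were extracted, less RNA per nucleus and fewer nuclei cannot be told apart either. A ratio holds no level, so the label of the tissue could not be checked against marker levels.

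Mitochondria carry their own small genome, whose few messenger RNAs encode core subunits of the respiratory chain and the ATP synthase. These messages are read by a dedicated ribosome, whose small subunit decodes the message and whose large subunit joins the amino acids. Its proteins are made in the cytosol from nuclear genes and imported. A syncytial embryo lives largely on RNAs and mitochondria laid down by its mother, so transcripts for this ribosome are present before the embryo transcribes its own genome in bulk.

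Most transcripts of the mitochondrial ribosome differed little between wounded and unwounded embryos. Of the 79 probes, 59 had a mean log2 ratio within 0.2 of 0, which is 74.7%, against 68.9% of all probes tested. Another 16 lay at -0.2 or lower (20.3%, against 18.7%) and 4 at 0.2 or higher (5.06%, against 12.4%). The members' median ratio was -0.03 over the 3 arrays, at 0.03 in experiment 3, -0.09 in experiment 4 and -0.06 in experiment 5. The median of all probes tested was 0.00. A probe was called at a limma adjusted p under 0.05 together with a change of at least 1.5-fold. By this rule 1 member rose, an mRpS34 probe, against 0.493% of all probes, and 1 fell, an mRpL38 probe, against 1.59% of all probes, while 77 did not pass. Both together made 2.53% of the members, against 2.08% of all probes called in either direction. The counts of members called were thus near the background, and 1 probe more or less would change each share by 1.27 percentage points.

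**Figure D1:**
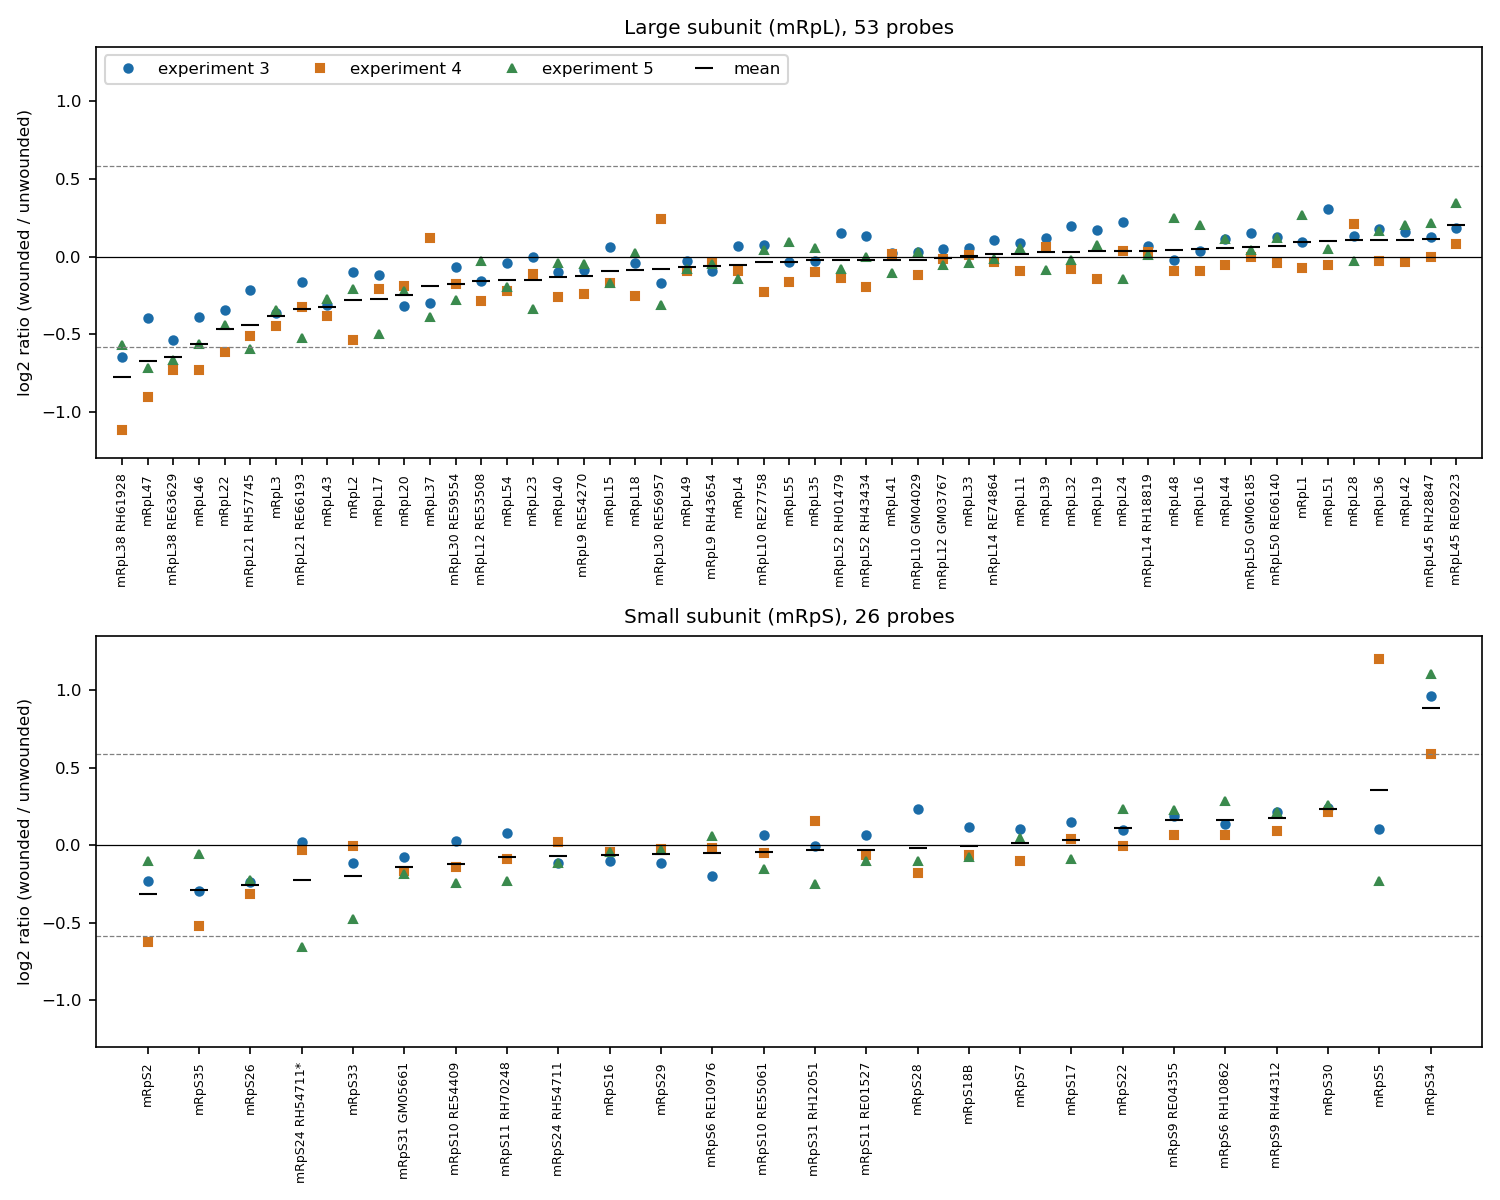
Log2 ratio of wounded over unwounded (vertical axis) for each of the 79 probes on the 3 arrays, with the large subunit above and the small subunit below. Probes are ordered by their mean (black bar), dashed lines mark a change of 1.5-fold, an asterisk marks a ReAmp probe, and most members lie near 0 except for a group of large subunit probes at the left and mRpS34 and mRpS5 at the right.

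Although few members were called, more of their ratios lay below 0 than above in experiments 4 and 5. In experiment 3, 36 of 79 members lay below 0 (45.6%, against 49.4% of all probes tested). In experiment 4 it was 61 (77.2%, against 52.5%) and in experiment 5 it was 52 (65.8%, against 48.8%). The excess in experiment 4 was not particular to the members. There, 33 of 44 cytosolic ribosomal protein probes and 52 of 76 respiratory chain and ATP synthase probes also lay below 0. In experiment 5 these lists had 27 and 32 probes below 0. The mean was below 0 for 50 members (63.3%, against 50.1% of all probes tested). Of the 79 probes, 27 lay below 0 on all 3 arrays (34.2%, against 25.1% of all probes tested) and 7 lay above 0 on all 3 (8.86%, against 25.4%). At an unadjusted limma p under 0.05 there were 15 lower members (19.0%, against 14.7%) and 3 higher ones (3.80%, against 9.86%). Experiment 4 held the lowest of the 3 ratios for 47 members (59.5%, against 45.2% of all probes tested), and experiment 3 held the highest for 42 (53.2%, against 35.9%). These shares are a description, since members were not tested as a set.

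With the probes of a gene averaged, mRpL38 had the lowest ratio among the members. In mammals this protein sits in the central protuberance, a crown of the large subunit that contacts the small one. The mRpL38 probe RE63629 had -0.54, -0.73 and -0.67 in experiments 3, 4 and 5, with a mean of -0.65 ± 0.10 (SD, n = 3), or 1.56-fold lower, and was called (limma adjusted p = 0.0402). A further mRpL38 probe, RH61928, had -0.65, -1.11 and -0.57, with a mean of -0.78 ± 0.30, the lowest of any member probe. All 6 values of this gene were thus below -0.5, and the probe with the larger mean was also the more variable and did not pass (adjusted p = 0.0558). Averaged on each array, both probes gave a mean of -0.71, which passed (adjusted p = 0.0369). In the fit by single probes the smallest adjusted p of any probe was 0.0402. Every call there thus lay close under 0.05, and calls and near misses differ little in adjusted p.

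Low ratios were also measured for mRpL47 and mRpL46, and neither passed. By single probes mRpL47 lay between the mRpL38 probes. The mRpL46 protein also lies in the central protuberance of the mammalian ribosome. Its probe RE11791 had -0.39, -0.73 and -0.56, with a mean of -0.56 ± 0.17 (adjusted p = 0.0529). A further mRpL46 probe, RE09091, which is empty in experiment 4 and so is not among the 79, had -0.49 and -0.67 in experiments 3 and 5. Both mRpL46 probes were therefore negative wherever they had a value. The remaining members of the central protuberance group lay near 0, with mRpL40 at -0.13 ± 0.11 and mRpL48 at 0.05 ± 0.18. Over the 5 probes of this group the median was -0.56, and 1 was called. Since mRpL38 counts with both its probes there, the median over the genes of the group was nearer to 0, at -0.35. The mRpL47 protein is, despite its high number, the counterpart of a bacterial protein, uL29, at the exit of the peptide tunnel. Its probe AT29239 had -0.40, -0.90 and -0.72, with a mean of -0.67 ± 0.26 (adjusted p = 0.0586).

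**Figure D2:**
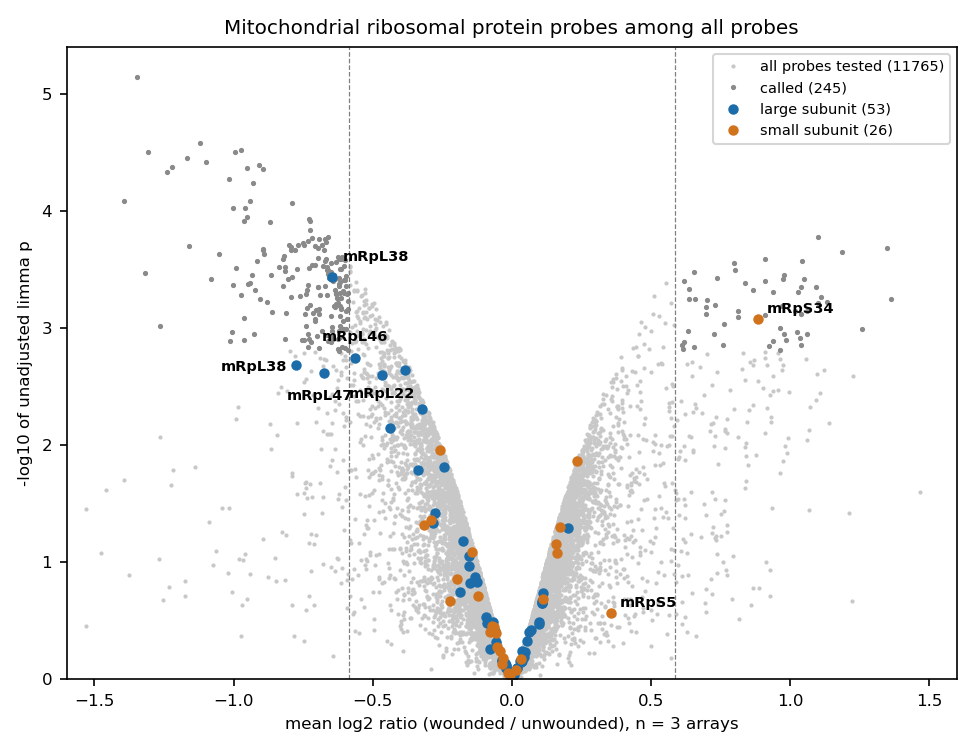
Mean log2 ratio over the 3 arrays (horizontal axis) against -log10 of the unadjusted limma p (vertical axis) for all 11765 probes, with the 53 large and 26 small subunit probes in colour and dashed lines at 1.5-fold. Probes beyond 1.6 on the horizontal axis are not shown, and 1 mRpL38 probe and 1 mRpS34 probe lie among the called probes. The mRpL47 probe and the other mRpL38 probe lie beyond the 1.5-fold line but were not called. Those of mRpL46 and mRpL22 lie inside that line.

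A further set of large subunit genes had smaller negative ratios that did not pass. The mRpL22 protein lines the peptide tunnel, and its probe had -0.34, -0.61 and -0.44, with a mean of -0.47 ± 0.14 (adjusted p = 0.0594). The mRpL3 protein reaches toward the catalytic centre, and its probe had -0.36, -0.44 and -0.34, with a mean of -0.38 ± 0.05 (adjusted p = 0.0579). For mRpL21, probe RH57745 had -0.21, -0.51 and -0.59 and probe RE66193 had -0.16, -0.32 and -0.53. All 3 of these genes thus lay below 0 on every array and with every probe, at changes under 1.5-fold. The probe of mRpL43 had -0.31, -0.38 and -0.27 (mean -0.32 ± 0.06). At an adjusted p under 0.10 and any size of change, 8 members were lower (10.1%, against 6.65% of all probes tested), and all 8 were large subunit probes, while 1 was higher (1.27%, against 2.18%). The 8 lower probes stood for mRpL38, mRpL47, mRpL46, mRpL22, mRpL21, mRpL3 and mRpL43, with adjusted p from 0.0402 to 0.0917. The lowest small subunit probe was that of mRpS2, with -0.23, -0.62 and -0.10 (mean -0.32 ± 0.27, adjusted p = 0.20).

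The subunits as a whole had like medians. The large subunit had a median of -0.03 over 53 probes, of which 0 rose and 1 fell, with 20 below 0 on all arrays and 2 above. The small subunit had -0.04 over 26 probes, of which 1 rose and 0 fell, with 7 below 0 on all arrays and 5 above. Ribosomal proteins with low numbers are shared with bacteria, while most of those with high numbers arose in mitochondria. Large subunit probes numbered up to 36 had a median of -0.06 (31 probes) and those from 37 on -0.02 (22 probes). Small subunit probes numbered up to 21 had -0.02 (14 probes) and those from 22 on -0.06 (12 probes). These medians moved with the arrays. Without experiment 4 the large subunit groups had -0.01 and 0.02 and the small subunit groups -0.03 and -0.12. Without experiment 5 the small subunit probes numbered up to 21 had 0.01. These numbers follow the names and not sequence, and a few high-numbered proteins, among them mRpL47 and mRpS24, do have bacterial counterparts.

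Members at the stalk of the large subunit gave small ratios. The stalk and the site beneath it, where mRpL10, mRpL11 and mRpL12 recruit translation factors, had a median of -0.02 over 5 probes (0.03 without experiment 4), none of them called. The mRpL12 protein, which is needed for growth driven by Cyclin D and Cdk4 in flies, had -0.01 ± 0.05 with probe GM03767 and -0.15 ± 0.13 with probe RE53508. The probes of mRpL10 had -0.02 ± 0.09 and -0.04 ± 0.17, and that of mRpL11 had 0.02 ± 0.10. Around the exit of the peptide tunnel the members did not move alike. Besides mRpL47 at -0.67 and mRpL22 at -0.47, mRpL23 had -0.15 ± 0.17 and mRpL24 had 0.04 ± 0.18, and mRpL45, which in mammals resembles the import protein TIMM44, had 0.20 ± 0.13 and 0.11 ± 0.11. The mRpL45 probe RE09223 had 0.18, 0.08 and 0.34 and did not pass (adjusted p = 0.205).

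The 1 rise was that of mRpS34, a small subunit protein without a bacterial counterpart, whose loss in humans depletes the small subunit. The probe RH64455_ReAmp had 0.96, 0.59 and 1.10 in experiments 3, 4 and 5, with a mean of 0.88 ± 0.27, or 1.85-fold (adjusted p = 0.0425). Its ratio was above 0.5 on every array. The spot of the same clone without the suffix, RH64455, is empty in experiment 4 and had -1.25 in experiment 3 and 1.18 in experiment 5. The spots of this one clone therefore had opposite signs in experiment 3, 2.21 apart, and nearly equal values in experiment 5. Across the array, 398 clones had both a plain and a ReAmp spot, and their ratios differed by a median of 0.24 where both had a value. The gap for mRpS34 averaged 1.14, and 28 of the 398 clones had a gap over 1. With probes on at least 2 arrays admitted to the fit, the ReAmp probe of mRpS34 no longer passed (adjusted p = 0.0504).

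Single arrays set the values of a few other small subunit probes. The mRpS5 protein belongs to the decoding region, and its probe had 0.11, 1.2 and -0.23 in experiments 3, 4 and 5, with a mean of 0.36 ± 0.75 (adjusted p = 0.472). Without experiment 4 its mean was -0.06. The ReAmp probe of mRpS24 had 0.02, -0.03 and -0.66, whereas the plain spot of the clone had -0.12, 0.02 and -0.11. Experiment 5 alone was low there, and only with the ReAmp spot. At the other end, the mRpS30 probe had the smallest spread of all members, with 0.24, 0.21 and 0.26 and a mean of 0.24 ± 0.02. It was higher on all 3 arrays at a size well under 1.5-fold and did not pass (adjusted p = 0.120). The other smallest spreads were those of mRpL9 probe RH43654, at -0.06 ± 0.03, and mRpL14 probe RH18819, at 0.04 ± 0.03. The mRpS30 protein, though named for the small subunit, is found on the large one in mammals. Both mRpS9 probes were also positive on all arrays, at 0.17 ± 0.07 and 0.16 ± 0.08. Among genes with 2 probes complete on all arrays, mRpS6 was the 1 gene whose probes differed in the sign of the mean, at 0.16 ± 0.11 and -0.05 ± 0.13. Of the S18 paralogs only mRpS18B had a probe, with a mean of -0.01 ± 0.11.

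**Figure D3:**
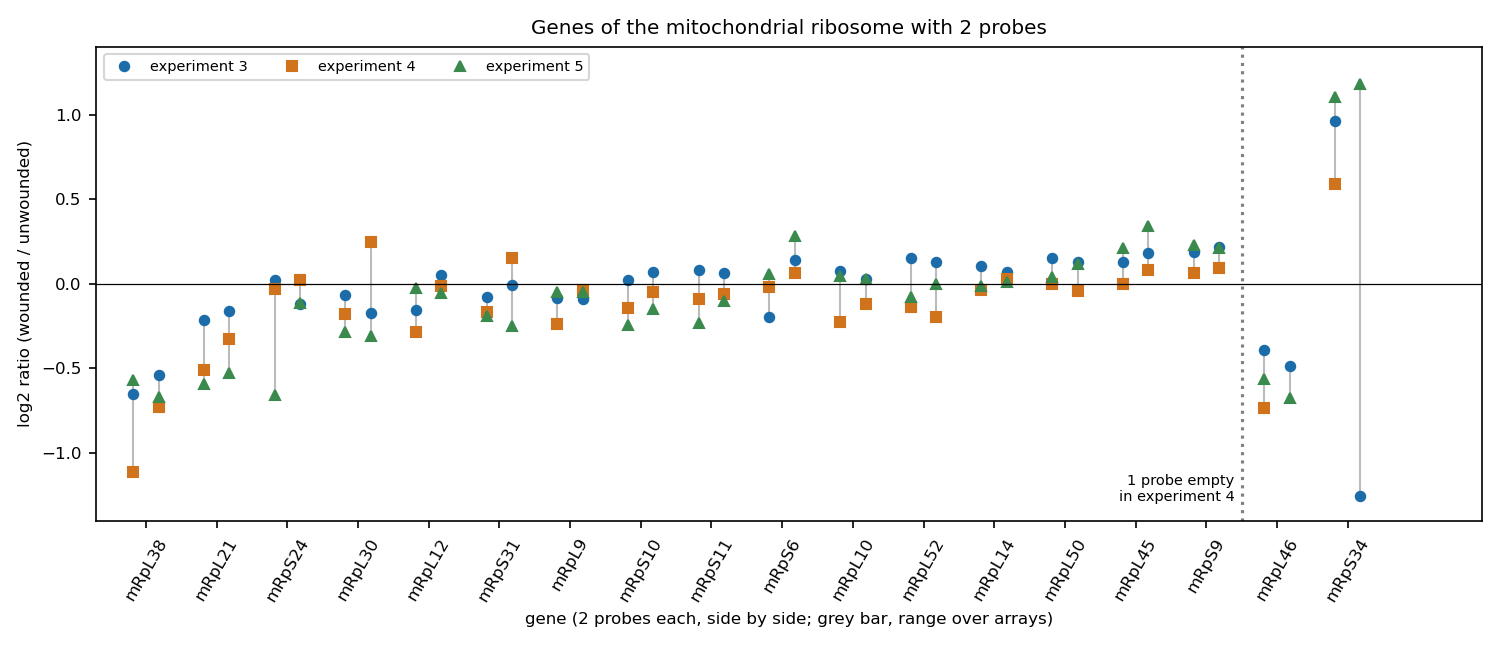
Log2 ratio (vertical axis) on each array for genes with 2 probes, drawn side by side, with a grey bar for the range over arrays. The 16 genes left of the dotted line have values on all arrays with both probes, and those at the right have 1 probe that is empty in experiment 4, of which mRpL46 has negative values throughout and mRpS34 has values from -1.25 to 1.18.

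Where a gene had more than 1 probe complete on all arrays, the probes mostly gave like values. This leaves out mRpL46 and mRpS34, each with a probe empty in experiment 4. The mRpS34 spots lay 2.21 apart in experiment 3. In 15 of the 16 genes with 2 complete probes, both means had the same sign, and in 15 they lay within 0.2 of each other. The gap was 0.08 at the median and 0.22 at most, for mRpS6. For the 1071 other genes with 2 probes, the gap was 0.09 at the median and 1.51 at most. Of these, 792 had means of the same sign and 809 had means within 0.2 of each other. Among the small subunit genes with 2 probes, mRpS10 had -0.12 and -0.04, mRpS11 had -0.08 and -0.03, and mRpS31 had -0.14 and -0.03, none of them called. The mRpL52 probes both had a mean of -0.02, and those of mRpL50 had 0.06 and 0.07. Probes of one gene share the RNA and the array, so their likeness shows how well the spots repeat and adds no replicate of the condition.

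The members' ratios were correlated between the arrays. Since 59 of the 79 means lay within 0.2 of 0, the few probes far from 0 can weigh heavily in these values. Across the 79 probes Pearson's r was 0.692 for experiment 3 against 4. It was 0.760 for experiment 3 against 5 and 0.513 for experiment 4 against 5. Across all probes tested it was 0.392, 0.462 and 0.271 in the same order. Without mRpS34 and mRpS5 the members had 0.742, 0.690 and 0.574. The points share arrays and dye orientation, and these values are descriptions without a test.

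A pair of mitochondrial ribosomal proteins of flies goes by names outside the mRp series. The tko gene encodes protein S12 of the decoding centre, and its mutants are known for seizures and respiratory defects. Its probe had -0.22, -0.13 and -0.12, with a mean of -0.16 ± 0.06 (adjusted p = 0.222). The bonsai gene encodes a relative of bacterial S15, and its probe had 0.06, -0.08 and 0.04, with a mean of 0.00 ± 0.08. The tko probe was low on every array by a small amount, and bonsai was on both sides of 0.

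The partners of this ribosome showed few calls, where 2.08% of all probes tested were called. Among mitochondrial translation factors, 0 of 8 probes (7 genes) were called and the median was -0.03, which became 0.04 without experiment 4, with mEFTs, which recharges the factor EF-Tu, at -0.27 ± 0.09 and mEFTu2 at 0.20 ± 0.06. Among mitochondrial aminoacyl-tRNA synthetases, which load the transfer RNAs, 0 of 14 probes were called and the median was -0.05. In that list TrpRS-m had -0.39, -0.50 and -0.46, with a mean of -0.45 ± 0.06 and an adjusted p of 0.0469, but at 1.37-fold it did not reach the minimum change. The list for mitochondrial transcription, RNA and DNA maintenance had a median of -0.01 and 0 calls among 17 probes. Its lowest value was that of bsf, an RNA-binding protein of the LRPPRC family, with -0.41, -1.05 and -1.03 (mean -0.83 ± 0.36, adjusted p = 0.0657). The values of bsf were thus lower in experiments 4 and 5 than in experiment 3. The poly(A) polymerase gene MTPAP had -0.30 ± 0.03 (adjusted p = 0.0846).

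Import of the ribosomal proteins depends on the translocases and their chaperones, and here 2 of 21 probes fell (9.52%, against 1.59% of all probes tested) and 0 rose. The inner membrane channel gene Tim23 had -0.47, -0.81 and -0.90, with a mean of -0.73 ± 0.23 (adjusted p = 0.0469). The gene Roe1, for the exchange factor of the mitochondrial Hsp70 motor, had -0.50, -0.67 and -0.59, with a mean of -0.59 ± 0.09 (adjusted p = 0.0402), at 1.503-fold just above the minimum change, with probe GM03203. Its other probes, RE56495 and RE56495_ReAmp, had -0.12 ± 0.16 and 0.08 ± 0.16, so that the fall of Roe1 was seen with 1 of 3 probes. With probes of one gene averaged, 1 gene of the list was called. The list had a median of -0.14, with 12 of 21 probes below 0 on all arrays (57.1%, against 25.1%), and its medians of -0.14, -0.12 and -0.15 were alike on the 3 arrays. In the import list the chaperone gene Hsp60A had -0.46 ± 0.07 (adjusted p = 0.0469), which is 1.37-fold and under the minimum change.

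The products of the mitochondrial ribosome join nuclear subunits of the respiratory chain. Of 76 probes for these and the ATP synthase, 0 rose and 1 fell, UQCR-6.4 of complex III at -0.61 ± 0.16, and the median was 0.03. The COX7A probe RE30055 had -0.58 ± 0.14 (limma adjusted p = 0.0459), at 1.496-fold just under the minimum change. The other COX7A probe, RE30424, had 0.10 ± 0.06. The 76 probes stood for 58 of the 96 genes in the list. Cytosolic ribosomal proteins had 1 fall among 44 probes, RpL23 at -1.10 ± 0.11. Their median was -0.05 (-0.01 without experiment 4), with 14 probes below 0 on all arrays and 4 above. These 44 probes stood for 31 of the 86 genes in that list. Over all probes tested, 0.493% rose and 1.59% fell. The tested probes of both ribosomes thus had medians a little below 0 and few calls, with most cytosolic ribosomal genes not covered. No test of a difference between the lists was made. Embryo age markers moved beside these values. Of 22 early zygotic probes 10 rose and 0 fell (median 0.64, with 0.91, 0.50 and 0.68 in experiments 3, 4 and 5), and of 16 probes for maternal and germ plasm RNAs 0 rose and 3 fell (median -0.16). The markers nullo, dpn, dhd and exu are also among the top changed genes that the study lists. The marker lists are therefore not independent of these data. The part of these markers in the ratios of the ribosomal genes was not tested.

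**Figure D4:**
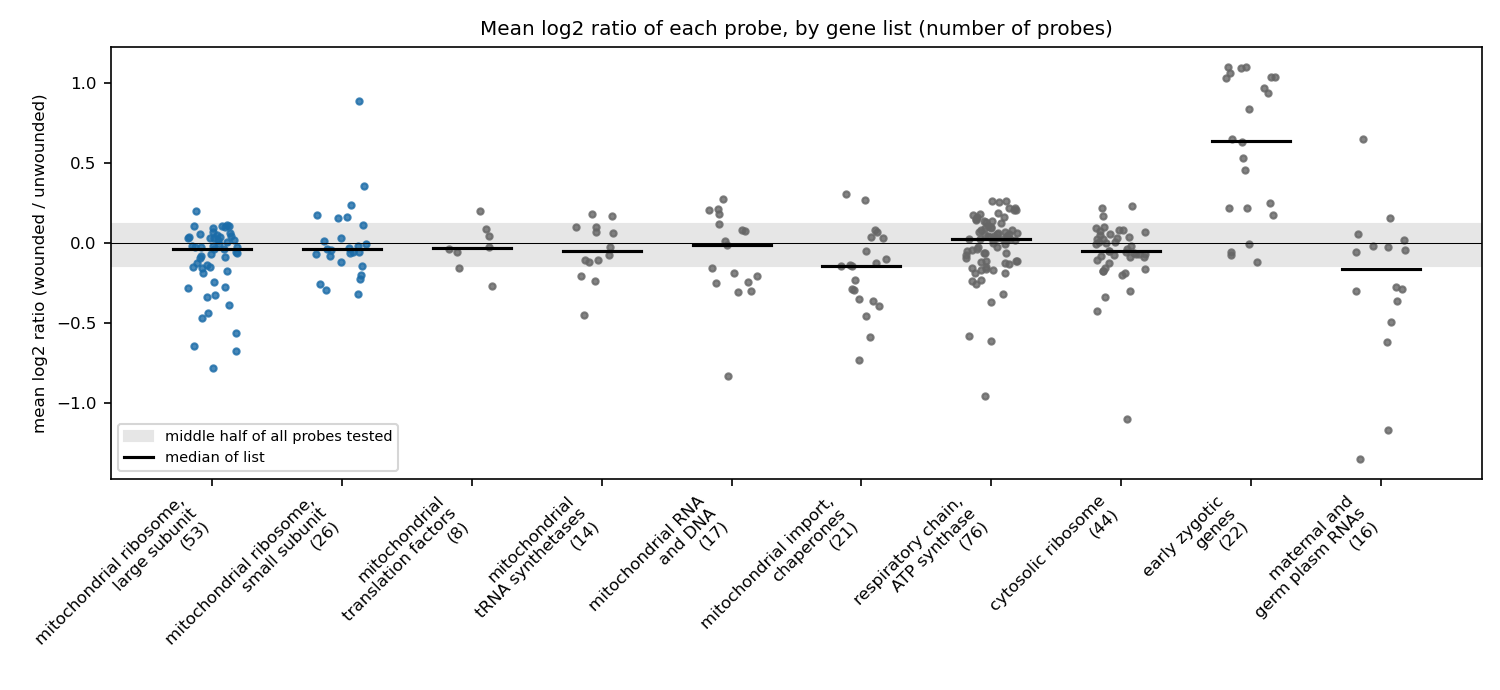
Mean log2 ratio of each probe (vertical axis) for the mitochondrial ribosome and for lists of its partners and of embryo age markers, with the number of probes in parentheses, a black bar at the median and a grey band between the lower and upper quartile of all probes tested. The 2 lists of the mitochondrial ribosome have medians of -0.03 and -0.04, inside the band, and the early zygotic list has 0.64, above it.

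Spotted clones do not mark strand, so that RNA of an overlapping gene on the other strand can add to a spot. In NCBI's Release 6 gene table, used for neighbourhood only, 35 of the 63 genes overlapped another gene and 0 lay directly next to another member. Overlap was taken from gene positions on either strand, and clone sequences were not compared. The counts therefore do not show which overlaps lie on the other strand or reach a spotted clone. For 30 overlapping pairs both genes had tested probes, and their means lay 0.17 apart at the median, with 18 pairs within 0.2. Pairs of genes that do not overlap were not compared. Most probes lay near 0 in any case (68.9% of all probes tested within 0.2 of it). Without such a comparison, these gaps cannot tell whether overlapping genes were more alike than others. The part of overlapping genes in the ratios was not tested. The pairs were of several kinds, and those named here were chosen after their values were seen. Both genes lay below 0 in some pairs, as with mRpL2 at -0.28 and Ufd1 at -0.47. The mRpS16 probe had -0.06 ± 0.03 while the overlapping ReepB, an endoplasmic reticulum protein gene, had -1.02, and mRpL23 had -0.15 while CG8993 had -0.71. The mRpS9 probes had a joint mean of 0.17, while ArgRS-m, a synthetase of the same organelle that overlaps it, had -0.24. Conversely, mRpL47 had -0.67 and its overlapping gene Rlb1 0.26, and mRpS34 had 0.88 and Golgin104 -0.17. The genes mRpL38, mRpL46, mRpL22, mRpL21 and mRpL3 overlapped no other gene.

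**Figure D5:**
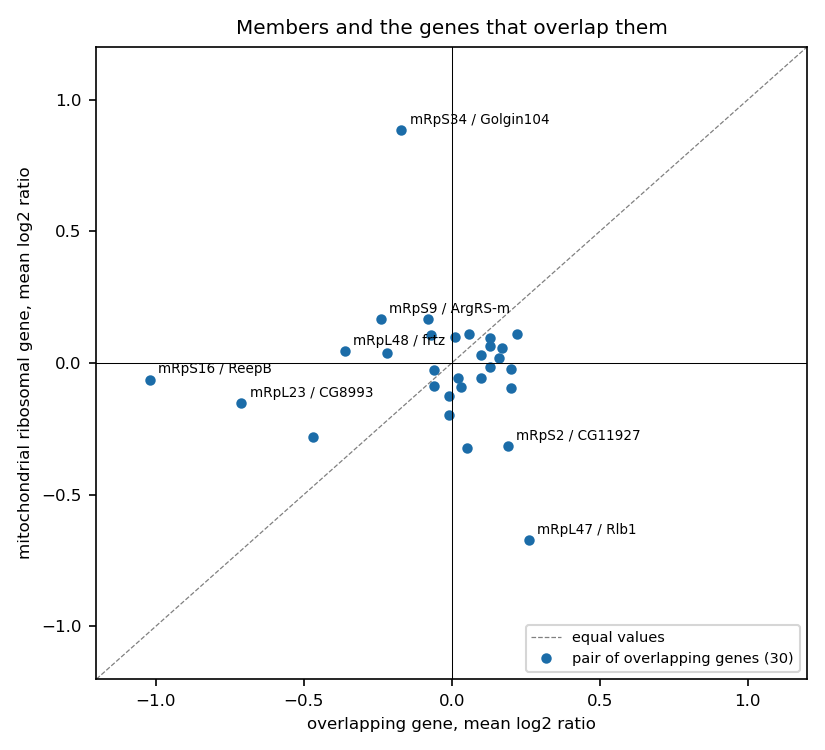
Mean log2 ratio of a mitochondrial ribosomal protein gene (vertical axis, probes averaged) against that of a gene overlapping it (horizontal axis) for 30 pairs, with a dashed line for equal values. Pairs more than 0.4 apart are named, and mRpS34, mRpL47 and mRpS16 lie farthest from the line.

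The calls rested on all 3 arrays. No probe of any gene was called in limma after 1 array was left out, when 2731, 1652 and 1916 probes had an unadjusted p under 0.05 without experiment 4, 3 and 5, nor when every array was brought to an equal spread (2903 with an unadjusted p under 0.05). The mRpL38 probe RE63629 kept its direction in each of these fits, with means from -0.70 to -0.60, and so did the mRpS34 ReAmp probe, with means from 0.77 to 1.03. The replicates were made independently by the methods, but whether from separate fly cultures is not said. The p-values thus measure spread between these 3 arrays, with each probe's variance drawn by limma toward a value shared by all probes. The SDs given here are not moderated in this way.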

How the data were processed

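Expression was measured on spotted cDNA arrays (FHCRC Fly 12k). Per the study's methods, the authors removed dim and questionable spots in GenePix Pro, took log2 ratios of both channels and loess normalized each array in limma. The deposited values are these log2 ratios, 1 per probe and array. Spot intensities were not used here, so signal over background is unknown and precision is limited by there being 3 arrays. As loess brings most ratios to about 0, a change common to most transcripts is removed. Medians of gene probes were 0.00, -0.01 and 0.01 in experiments 3, 4 and 5. Ratios of plant control spots were more spread (SD 1.09, 1.03 and 1.67) than those of gene probes (SD 0.378, 0.345 and 0.362), and the 160 control spots were left out. Of the gene probes, 11765 had a value on all arrays.

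Probes were named by the platform annotation, brought up to date by gene identifier with the RefSeq table of Release 6. Of the 12144 probes in the table, 11984 were gene probes, of which 9917 had 1 symbol (9746 matched by identifier), 625 several and 1442 none. Each probe was tested on its own, since genes with several probes are given per probe, in limma 3.58.1 (R 4.3.3). The mean ratio was set against 0 by lmFit and eBayes, two-sided, and p-values were adjusted by Benjamini-Hochberg over all 11765 probes. The fold minimum of 1.5 follows the study's methods. The test was run on simulated data with independent normal noise, which held no effect of array, dye or spot. That run therefore says nothing on the calls of single members. Per the study's methods the replicates were independent and more were made than the 3 experiments analysed here. Members, lists and tests were chosen with earlier results of these data known. Named probes were the called members, the 5 highest and 5 lowest with the same sign on all arrays, all probes of genes with several probes, members of the functional centres, tko and bonsai, the 3 largest and smallest SDs, and the called or lowest-p genes of each list. Members outside this rule (mRpL2, mRpL3, mRpL43, mRpS2, mRpS16, mRpS26), Hsp60A, COX7A and the overlapping genes were named after their values were seen. No protein or promoter sequence was at hand, so the motif search was not run. Alternatives were averaged probes, scaled or centred arrays, 2 arrays, array weights, robust moderation, left-out arrays, and other thresholds and signs.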

Additional observations from a re-analysis of the deposited data

How the results depend on the processing

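With an equal spread set for every array, limma called 0 probes, 0 of them higher and 0 lower, and 0 members in either direction (16 members had an unadjusted p under 0.05), for reasons that were not examined. A limma test for changes beyond 1.5-fold also called 0 probes and 0 members, with 133 probes and 1 member at an unadjusted p under 0.05. Any 2 arrays alone gave 0 to 0 calls over all probes, higher, lower and among members. With 2 arrays required, 38 probes were called higher and 0 members, since mRpS34 just missed the threshold. With no minimum change 293 probes were called lower, and at an adjusted p under 0.10 there were 124 called higher and 3 members called lower. Array weights gave 2 members lower, both of mRpL38. The opposite sign gives 187 probes higher and 58 lower. Over all probes, 76.3% of calls were lower, 69.2% with array weights and 66.0% at an adjusted p under 0.10. The median of small subunit members numbered from 22 on ranged from -0.122 to -0.0267 when an array was left out. The mean of mRpS5 turned to -0.0642 without experiment 4 and reached 0.65 without experiment 5. No paired analysis was possible because the labels give 1 group, so that no replicate number is shared between groups, and each ratio already pairs wounded with unwounded RNA on its array. The signal over background behind each ratio is unknown.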

Other observations

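Some probes that the annotation assigns to a mitochondrial ribosomal protein gene together with another gene are not members. RE44641, assigned to alphaTub67C and mRpL30, had -0.72, -0.81 and -0.59 and was called lower (mean -0.71 ± 0.11, limma adjusted p = 0.0402), while the probes of mRpL30 alone had -0.17 ± 0.11 and -0.08 ± 0.29. The alphaTub67C gene encodes a maternal alpha-tubulin. LD27070, assigned to CG10602 and mRpL13, had -0.38, -0.01 and -0.12, and GM05817, assigned to CG33155 and mRpL53, had -0.10, -0.25 and -0.22.

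The clones of the members came from several cDNA libraries, whose probes had different medians over the whole array. The 35 members on RE clones had a median of -0.07, against -0.03 for all 2432 RE probes, of which 701 lay below 0 on all arrays and 476 above. The 16 members on RH clones had -0.03, against -0.05 for all 1068 RH probes. The 12 members on LD clones had 0.03, against 0.06 for all 2807 LD probes, of which 538 lay below 0 on all arrays and 1120 above. In experiment 4, 1481 of all RE probes, 713 of all RH probes and 1182 of all LD probes lay below 0. The part of the clone libraries in the ratios of the members was not tested.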
